A study of Mus musculus with 24 samples.

Results

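The 39 genes described here encode caspases, BCL2 family proteins, death receptors and the proteins that these receptors recruit. They were taken by symbol from a list, matched to the identifiers of the table through GENCODE vM21, and all 39 were among its 37315 genes. RNA-seq had been performed in the PaX line, 1 female mouse embryonic stem cell (ESC) line that is a hybrid of 129S1/SvImJ and CAST/EiJ. It carries an X-GFP reporter in Hprt on the Mus musculus X chromosome, a truncated Tsix, a reporter of pluripotency that drives RFP and a doxycycline-inducible MKOS cassette that encodes the reprogramming factors. There were 12 populations of 2 libraries each, namely the ESCs, the neural precursor cells (NPCs) derived from them, and cells under reprogramming at days 2, 5 and 7, with or without interferon γ (IFNγ). All reprogramming cells, control and IFNγ-treated, were derived from the NPCs and received doxycycline, ascorbic acid and LIF on a layer of irradiated male mouse fibroblasts. The cytokine, at 10 ng/ml, was present over the first 5 days, so that day 7 lies 2 days after its withdrawal. Day 2 cells were sorted as negative for CFSE, the dye that stained the fibroblasts, day 5 cells as SSEA1+, and day 7 cells as SSEA1+ and X-GFP–negative, –medium or –high.

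Cells can die by apoptosis, in which the contents stay enclosed, or by lytic routes. In apoptosis, death receptors at the membrane assemble FADD and caspase-8, or BAX and BAK open the mitochondrial outer membrane and release cytochrome c, which activates caspase-9 on APAF1. BH3-only proteins trigger BAX and BAK, and BCL2, BCL-XL and MCL1 restrain them. In pyroptosis, inflammatory caspases cut gasdermin D into a pore, and in necroptosis RIPK1 and RIPK3 activate the pore protein MLKL. Promoters of genes that respond to IFNγ often hold a palindromic element, the IFNγ-activated site (GAS), and several genes of the death machinery are known targets in other cell types. Abundance of an mRNA does not measure activation, since caspases, gasdermin D and MLKL are made as inactive precursors.

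The groups of genes with the largest responses were the inflammatory caspases, Mlkl, Tnfsf10 and Fas, and the sequences before 3 of these genes are shown because 2 of them hold a GAS motif and the other, of the gene with the largest change, does not. RefSeq windows of GRCm38.p6, from 250 bases before to 50 bases after each annotated start site, were found for 34 of the 39 genes, with no entry for Gsdmd, Pmaip1, Tnfrsf10b, Bik and Tradd. They were searched for TTCNNNGAA, the palindromic GAS motif, and for the core of the interferon-stimulated response element (GAAA, any 2 bases, GAAA), on both strands. The first was present in 8.30% and the second in 3.44% of all 32851 windows of the genome. Counted by gene, 9.55% and 3.99% of 27025 genes had them, and 4 and 2 of the 34 genes here. In the stretches below, given 5′ to 3′ on the strand of the gene and ending before the gene as annotated by GENCODE, capitals mark TTCNNNGAA.
Casp12: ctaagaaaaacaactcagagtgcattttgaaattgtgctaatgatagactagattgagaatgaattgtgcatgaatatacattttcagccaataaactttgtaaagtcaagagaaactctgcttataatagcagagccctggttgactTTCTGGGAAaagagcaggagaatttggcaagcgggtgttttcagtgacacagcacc
Fas: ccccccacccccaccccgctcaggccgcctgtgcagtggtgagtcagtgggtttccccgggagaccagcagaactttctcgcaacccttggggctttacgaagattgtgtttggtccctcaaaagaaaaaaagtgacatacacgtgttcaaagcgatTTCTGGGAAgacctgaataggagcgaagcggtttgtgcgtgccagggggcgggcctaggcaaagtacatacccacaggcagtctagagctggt
Casp1: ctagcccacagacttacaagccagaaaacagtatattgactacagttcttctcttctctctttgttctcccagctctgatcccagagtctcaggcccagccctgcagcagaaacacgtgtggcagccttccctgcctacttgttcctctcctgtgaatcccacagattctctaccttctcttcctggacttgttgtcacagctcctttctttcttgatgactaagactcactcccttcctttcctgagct
These lie at chr9:5345226-5345429, chr19:34290409-34290658 and chr9:5298267-5298516, all on the plus strand. The match of Casp12 begins 102 bases and that of Fas 93 bases before the RefSeq start site, and both read TTCTGGGAA. Casp12 has the same 9 letters again at 36 bases before that site, inside the span that GENCODE gives the gene. Tnfrsf1a has TTCCGTGAA at 244 bases before its start site, and the second window of Ripk1 holds TTCCCGGAA at 108 and at 11 bases before the start site and GAAATCGAAA at 5 bases before it, overlapping the nearer of these. Cflar holds the response element core on the other strand, within the 50 bases after its start site. The windows of Casp1, Casp4, Mlkl and Tnfsf10 held neither motif. A match of letters is not evidence of binding, and none was sought outside these windows.

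The libraries held 24746109 to 37056508 reads on genes. Levels are given as normalized counts, which are reads divided by 1 size factor per library, and values of both libraries of a group are given in the order of their replicate numbers, with control cells (or the earlier population) before "against". Markers matched the labels: the summed level of 6 pluripotency genes was 116394 to 124887 in ESCs and 786 to 1186 in NPCs, and that of 6 neural precursor genes was 42024 to 43097 in NPCs and 742 to 808 in ESCs. Transcripts of 4 Y-linked genes, which a female line lacks and male feeders have, summed to 218 to 253 in control and 125 to 223 in treated cells of day 2, against at most 12.5 in each library of the other 10 populations. Transcripts of male cells were thus detected in the libraries of day 2. Of the blood cell markers, Ptprc, Adgre1, Itgam and Cd3e reached at most 38.6 counts in any library, and Cd68, which other cells also express, ranged from 105 to 2740. Since these are bulk samples, fewer cells of a type and less RNA per cell cannot be told apart.

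**Figure D1:**
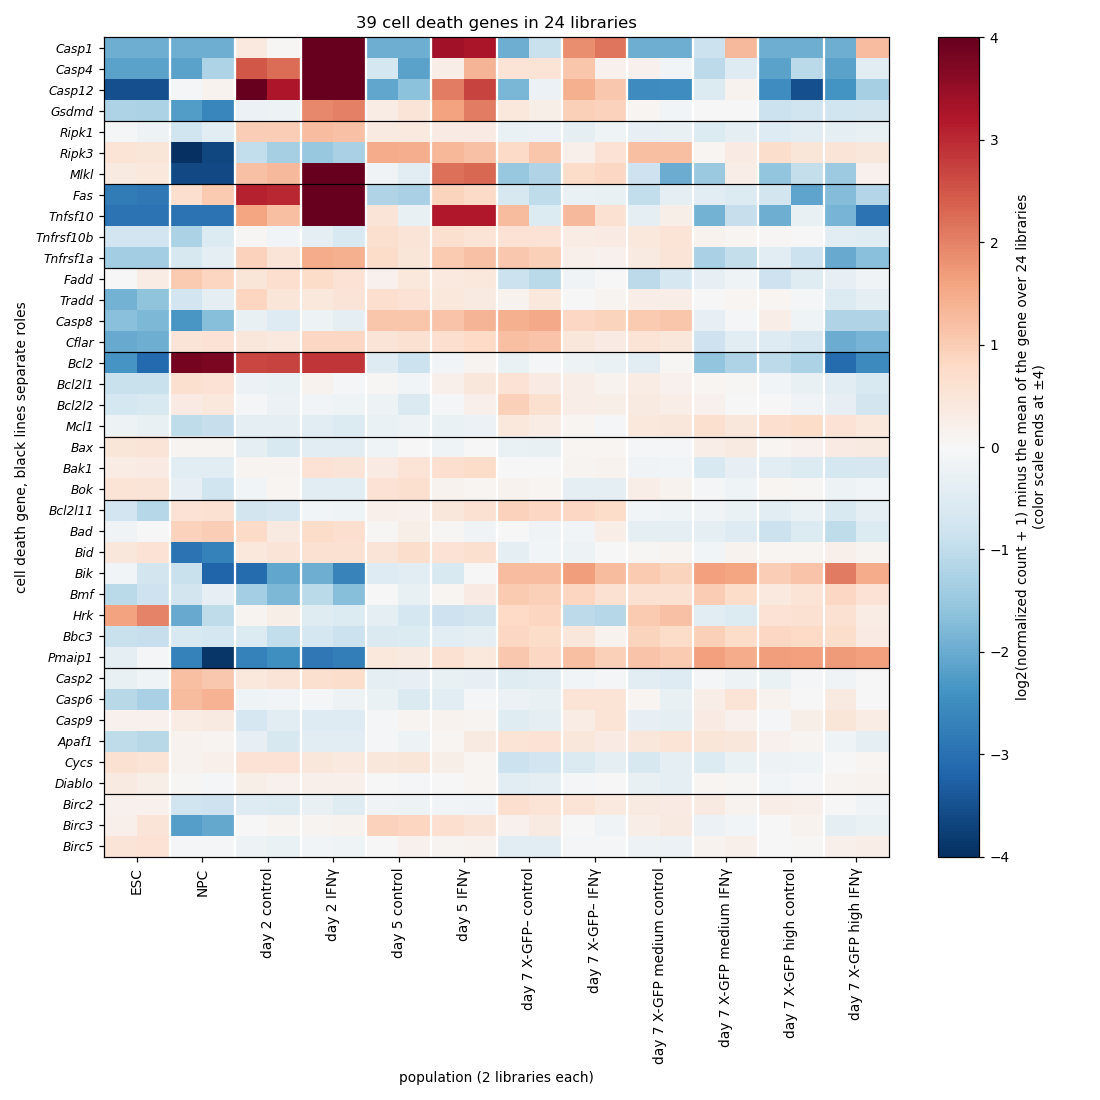
Each row is 1 of the 39 genes, ordered by role, and each column 1 of the 24 libraries. Color gives log2(normalized count + 1) minus the mean of the gene over all libraries, in log2 units, and the scale ends at −4 and 4. The inflammatory caspases, Mlkl, Fas and Tnfsf10 were highest in the IFNγ-treated cells of day 2, and Bcl2 was highest in NPCs.

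Per kilobase of exon, the scale on which genes can be compared, Mcl1 had the highest level of the 39 in all 12 populations. Its normalized count per kb went from 1855 ± 75.8 (SD, n = 2) in NPCs to 5882 ± 264 in X-GFP–high control cells and was 3049 ± 129 in ESCs. Bax was second in each population, from 1152 ± 139 in day 2 control cells to 2272 ± 6.55 in ESCs. Birc5, which acts both as an inhibitor of apoptosis and in chromosome segregation, ranked next after Bax in ESCs and NPCs, with 981 ± 18.5 and 641 ± 2.73 per kb. At the other end, Casp1, Casp4, Casp12, Mlkl and Tnfsf10 each had at least 1 population with no more than 3 reads in either library, which is taken here as the floor of detection. Of the others, Diablo varied least, by 1.62-fold between the highest and lowest population mean, and among genes above the floor everywhere Fas varied most, by 197-fold.

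The comparison of both arms at day 2 asked which cell death genes respond while the cytokine is present. Of 38 genes tested (Bik was too low), 11 rose and 3 fell at an adjusted p under 0.1 from limma, which is 36.8% of them, against 8.49% of all 15697 genes tested (5.03% higher and 3.45% lower). The median log2 fold change of the 38 was 0.12, against 0.0054 for all genes, so that the typical cell death gene changed little and a few changed by much. All 3 inflammatory caspases and gasdermin D rose, as did 3 of 4 genes of the death ligand and receptors, whereas none of the 4 BCL2 survival genes, of the 6 genes of the apoptosome and other caspases or of the 3 inhibitors of apoptosis passed the threshold.

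Caspase-1, which matures interleukin-1β and cuts gasdermin D, showed the largest change among members tested. Casp1 (chromosome 9, 5298517 to 5307265) had 4.07 and 2.98 normalized counts without and 209 and 192 with IFNγ. It went from a few reads to about 200.7 counts, and its log2 fold change was 5.49 (SE 0.28, adjusted p = 0.000119). The neighboring Casp4 (chromosome 9, 5308828 to 5336783), the receptor of cytosolic lipopolysaccharide, had 23.4 and 19.9 without and 105 and 94.0 with IFNγ, a change of 2.15 (SE 0.24, adjusted p = 0.00477). Casp12 (chromosome 9, 5345430 to 5373032), the next gene of the cluster, had 179 and 105 in control and 1261 and 1075 with IFNγ. The control libraries of Casp12 were well apart from each other, yet both were far below the treated ones, and the change was 3.07 (SE 0.24, adjusted p = 0.001). Gasdermin D, the pore of pyroptosis, had 219 and 226 counts of Gsdmd in control and 984 and 1049.8 in treated cells, with a change of 2.19 (SE 0.094, adjusted p = 4.9e-05). The groups of these 4 genes did not overlap. Here and below, with 2 libraries a group, this describes the values and is not a test. The share of all genes whose groups were apart was not computed.

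Of the necroptosis genes, Mlkl, which encodes the pore, rose from 26.5 and 28.8 counts in control to 295 and 271 in treated cells, by 3.31 (SE 0.18, adjusted p = 0.000176). The kinases upstream of it did not pass the threshold: Ripk1 had 1152 and 1145 in control and 1369.5 and 1315 with IFNγ (adjusted p = 0.12), and Ripk3 had 115 and 90.3 against 79.5 and 94.0 (adjusted p = 0.591). Tnfsf10, which encodes the death ligand TRAIL, rose from 22.4 and 16.9 to 263 and 214 counts, by 3.54 (SE 0.24, adjusted p = 0.000458). Its mouse receptor gene Tnfrsf10b moved the other way, from 706 and 629 to 515 and 448, with a change of −0.47 (SE 0.11, adjusted p = 0.0703). Ligand and receptor thus changed in opposite directions, each without overlap of the groups. Fas, the receptor of FAS ligand, had 349 and 335 in control and 906 and 999 with IFNγ, and rose by 1.47 (SE 0.093, adjusted p = 0.000338). Tnfrsf1a, the main receptor of TNF, had 606 and 459.5 in control and 891 and 850.0 in treated cells, and rose by 0.72 (SE 0.14, adjusted p = 0.0361).

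The remaining changes of day 2 were small. Cflar, which encodes cFLIP, the brake on caspase-8 at death receptors, had 766 and 738 in control and 995 and 1000.4 in treated cells, a rise of 0.41 (SE 0.072, adjusted p = 0.0288). Bak1, one of the pore formers of mitochondria, had 1738 and 1707 against 2402 and 2281, a rise of 0.44 (SE 0.059, adjusted p = 0.0108), while its exons share 614 of 2407 bases with Ggnbp1 on the opposite strand. Bcl2l11, which encodes the BH3-only protein BIM, had 454 and 470.5 against 702 and 662, a rise of 0.56 (SE 0.088, adjusted p = 0.019). Each of these stood apart between the arms. Of the genes that fell, Hrk, a BH3-only gene of neurons, had 142 and 154 in control and 93.5 and 90.04 in treated cells, a change of −0.68 (SE 0.17, adjusted p = 0.0773). Bok, a relative of BAX and BAK, had 433 and 495 against 342 and 348, a change of −0.42 (SE 0.11, adjusted p = 0.0939). The 3 decreases depended on the settings: each lost its call without the filter on low values and, for Hrk and Bok, by DESeq2. Hrk and Bok lost the call when any of the 4 libraries was left out, and Tnfrsf10b lost it without either control library or without replicate 2 of IFNγ. Cflar lost its call without control replicate 2 or either treated library, with adjusted p-values of 0.101 to 0.143, and Tnfrsf1a without the filter, at 0.113.

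Fibroblast markers moved with the treatment at day 2, where 5 of 8 such genes fell, against 3.45% of all genes. The summed level of 8 fibroblast genes was 45988 to 66284 without and 27437 to 32525 with IFNγ, and 28924 to 41033 in NPCs. Which cells of these bulk samples gave the transcripts was not tested. The Y-linked sums given above overlapped between the arms. The part of feeder cells, which received the cytokine too, in the values of day 2 was not tested. At day 5, Y-linked sums were 2.66 to 5.89 in control and 8.62 to 8.70 in treated cells. There Casp1, Casp12, Gsdmd, Mlkl, Fas and Tnfsf10 rose as well, and the part of feeder cells was not tested either.

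**Figure D2:**
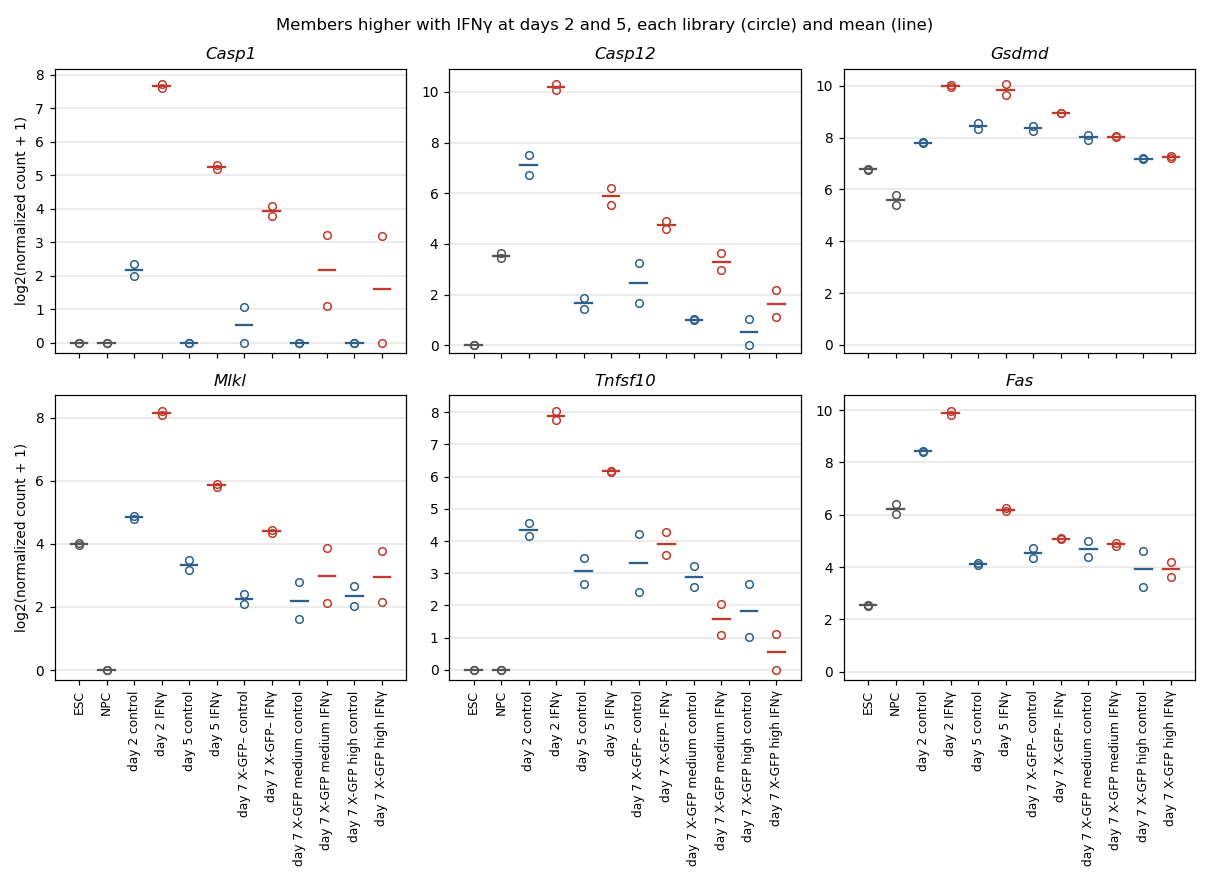
The vertical axes give log2(normalized count + 1) of the 6 genes that rose at both day 2 and day 5, and the horizontal axis gives the 12 populations. Circles are single libraries and lines are means of 2 libraries, in red for IFNγ-treated, blue for control and gray for ESCs and NPCs. At days 2 and 5 both treated libraries lay above both control libraries for each of the 6 genes.

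At day 5, after 5 days of IFNγ, 6 of 38 genes rose and none fell (Casp4 was too low for the test), which is 15.8% against 2.18% of all 15133 genes (1.65% higher and 0.535% lower). At an unadjusted p under 0.05 there were 14 higher and 2 lower, DESeq2 on the recovered reads called 8 higher and 1 lower, and edgeR called 6 higher and none lower. Limma called 14 higher in a fit of all 24 libraries and 10 without replicate 1 of IFNγ, where the shares of all genes were 8.75% higher and 6.64% lower and 6.42% higher and 5.64% lower. The 6 genes were Casp1, Casp12, Gsdmd, Mlkl, Tnfsf10 and Fas, each of which had also risen at day 2. Casp1 had no reads in control and 38.8 and 35.6 counts in treated cells. Against the floor of 3 reads per library it was at least 14.3-fold higher (adjusted p = 0.00254). Casp12 had 1.68 and 2.66 in control, at the floor, and 45.7 and 72.8 with IFNγ, so that it was at least 22.8-fold higher (adjusted p = 0.00553). Casp4 had 1.68 and 0 in control and 4.31 and 10.3 in treated cells. These are few reads in either arm, although the arms did not overlap.

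Gsdmd had 319 and 373 in control and 789.9 and 1064 in treated cells of day 5, a change of 1.41 (SE 0.17, adjusted p = 0.0148). Mlkl had 10.1 and 7.99 against 55.2 and 58.5, a change of 2.53 (SE 0.31, adjusted p = 0.0167). Tnfsf10 had 10.1 and 5.33 against 70.7 and 70.4, a change of 3.09 (SE 0.37, adjusted p = 0.0148). Fas had 16.8 and 16.0 against 75.9 and 68.8, a change of 2.07 (SE 0.27, adjusted p = 0.021). In each of these the lowest treated library was more than 2-fold above the highest control library, yet without replicate 2 of IFNγ the adjusted p of Mlkl was 0.102 and that of Fas 0.101. The mean levels with IFNγ were below those of day 2, a difference that was not tested, for Casp12 59.2 ± 19.1 against 1168 ± 132 (SD, n = 2) and for Fas 72.3 ± 5.01 against 953 ± 66.1, and for Gsdmd 927 ± 194 against 1017 ± 46.3. A test of the difference of the IFNγ effects between day 5 and day 2, in 1 fit of 8 libraries, called none of the 39 genes (6 at an unadjusted p under 0.05), against 0.676% of all genes. For Gsdmd, the difference of log2 fold changes was −0.78 (SE 0.21). The sorts of day 2 (CFSE-negative) and day 5 (SSEA1+) differed, so that time and sort cannot be told apart here.

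Genes around this machinery, from 5 further lists, responded in part. Of 17 tested genes of TNF receptor signaling, 5 rose at day 2 and 1 fell, among them Tnfrsf1b 1.39, Tnfaip3 1.16 and Cyld 0.86 as log2 fold changes, and Ngfr −0.55. Tnfrsf1b is the other TNF receptor, and Tnfaip3 and Cyld encode enzymes that remove ubiquitin and dampen its signal. Of 11 genes of inflammasomes and lytic death, 4 rose and none fell, with Zbp1 1.84, Nod1 1.79, Naip2 1.46 and Ripk2 0.78. Zbp1, a sensor of nucleic acids that can engage RIPK3, rose at day 5 too, by 2.29 (SE 0.16), and Rnf31, of the linear ubiquitin ligase, rose by 0.61 (SE 0.09). No other gene of the 5 lists passed at day 5. None of 20 mitochondrial and nuclear death factors and none of 13 p53 target genes passed at day 2 or day 5. At these shares of all genes, few calls would be met in lists of this length.

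At day 7 the cells had been without IFNγ for 2 days, and the comparison asked which differences remained or appeared in SSEA1+ cells of each X-GFP class. A majority of all genes passed the threshold in X-GFP–negative and –medium cells, so that counts of the cell death genes are to be read against a high background. In X-GFP–negative cells 11 rose and 14 fell of 37 tested, which is 67.6% against 61.9% of all genes (31.1% higher and 30.8% lower). In X-GFP–medium cells 10 rose and 13 fell of 34, 67.6% against 62.9% of all genes (33.3% higher and 29.6% lower). In X-GFP–high cells 5 rose and 13 fell of 34, 52.9% against 38.5% of all genes (18.1% higher and 20.4% lower). Calls in high cells were fragile: without control replicate 1 none was higher and 6 were lower, and DESeq2 called none higher. The medians of their log2 fold changes were −0.008, −0.064 and −0.13, against 0.016, 0.044 and 0.027 for all genes. The scaling bears on the first of these: with values rescaled to the same total, the median of all genes in X-GFP–negative cells was 0.17, and 15 members were higher and 9 lower, against 43.5% higher and 22.1% lower of all genes.

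**Figure D3:**
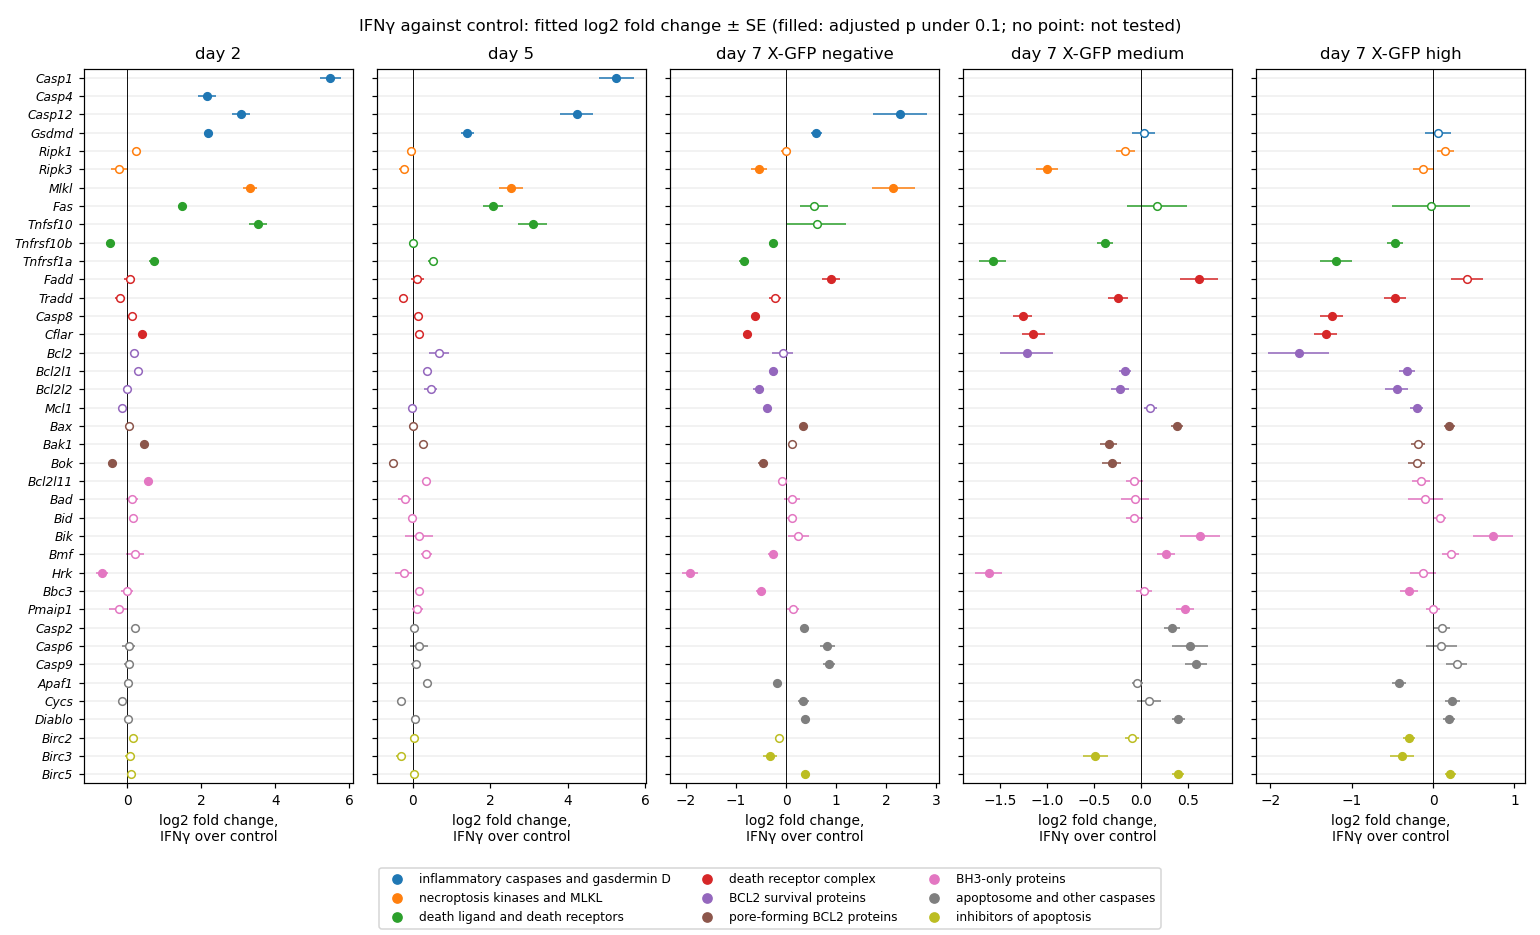
Points give the log2 fold change of IFNγ-treated over control cells for each gene tested, with bars of 1 SE, in 5 panels for day 2, day 5 and the 3 populations of day 7, each with its own horizontal scale. Color gives the role, and filled points passed an adjusted p under 0.1. Large increases of the inflammatory caspases, Mlkl, Fas and Tnfsf10 at days 2 and 5 stand beside smaller changes in both directions at day 7.

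Casp12, Mlkl and Gsdmd were still higher after IFNγ in X-GFP–negative cells. There, Casp12 had 2.19 and 8.58 in control and 29.0 and 22.8 in cells that had received IFNγ, a change of 2.27 (SE 0.54, adjusted p = 0.00635). Mlkl had 3.29 and 4.29 against 19.3 and 20.8, a change of 2.14 (SE 0.42, adjusted p = 0.00241). These were the 2 largest increases among members tested, at levels well below those of day 2. Gsdmd also rose, by 0.60 (SE 0.11, adjusted p = 0.00129), and Casp1, too low for the test, had 0 and 1.07 in control and 12.9 and 15.8 after IFNγ, at least 4.41-fold higher against the floor. In X-GFP–medium and –high cells Casp1, Casp4, Casp12, Mlkl and Tnfsf10 were too low for the test. Against the floor, Casp12 was at least 3.01-fold higher in medium cells, with 6.72 and 11.5 counts after IFNγ. Casp1 had no reads there in control and 1.12 and 8.36 counts after IFNγ, so that its bound of 1.56-fold rests on 1 library. Tnfsf10 had 4.94 and 8.26 in control and 1.12 and 3.14 after IFNγ in medium cells, at least 2.03-fold lower. Gsdmd was 276 and 239 in control and 263 and 260.3 after IFNγ in medium cells (adjusted p = 0.86) and 142 and 147 against 147 and 156 in high cells (adjusted p = 0.79). The change of Gsdmd differed between medium and negative cells in the test of the difference itself, by −0.57 (SE 0.16, adjusted p = 0.0456).

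Of the death receptor genes and their complex, Tnfrsf1a, Tnfrsf10b, Casp8 and Cflar were lower after IFNγ in all 3 populations. Tnfrsf1a, which had risen at day 2, had 675 and 612 in control and 365 and 355 after IFNγ in X-GFP–negative cells, a change of −0.83 (SE 0.10, adjusted p = 0.000128). In medium cells it had 411 and 452 against 128 and 162, a change of −1.58 (SE 0.14, adjusted p = 1.3e-05), and in high cells 234 and 174 against 77.7 and 99.4, a change of −1.19 (SE 0.20, adjusted p = 0.000982). Both libraries after IFNγ were below both control libraries each time. Casp8, the initiator caspase of death receptors, changed by −0.61 (SE 0.076, adjusted p = 0.000162) in negative, −1.26 (SE 0.10, adjusted p = 5.88e-06) in medium and −1.24 (SE 0.14, adjusted p = 6.15e-05) in high cells. Cflar, its neighbor on chromosome 1 and its brake, changed by −0.78 (SE 0.082, adjusted p = 6.32e-05), −1.14 (SE 0.12, adjusted p = 3.4e-05) and −1.32 (SE 0.14, adjusted p = 3.88e-05) in the same order, and in high cells it went from 396 and 351 in control to 142 and 156. Initiator and brake were thus both lower in each population. Tnfrsf10b was lower as well, with log2 fold changes of −0.27, −0.38 and −0.47, of which the first was lost on rescaled values and in the fit of all 24 libraries. The adaptor gene Fadd went the other way, by 0.90 (SE 0.18, adjusted p = 0.00224) in negative and 0.62 (SE 0.20, adjusted p = 0.0228) in medium cells, in the latter from 65.2 and 85.7 to 109.7 and 121, although without control replicate 1 the adjusted p in medium cells was 0.23. Fadd shares 239 of 3903 exonic bases with an antisense gene.

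**Figure D4:**
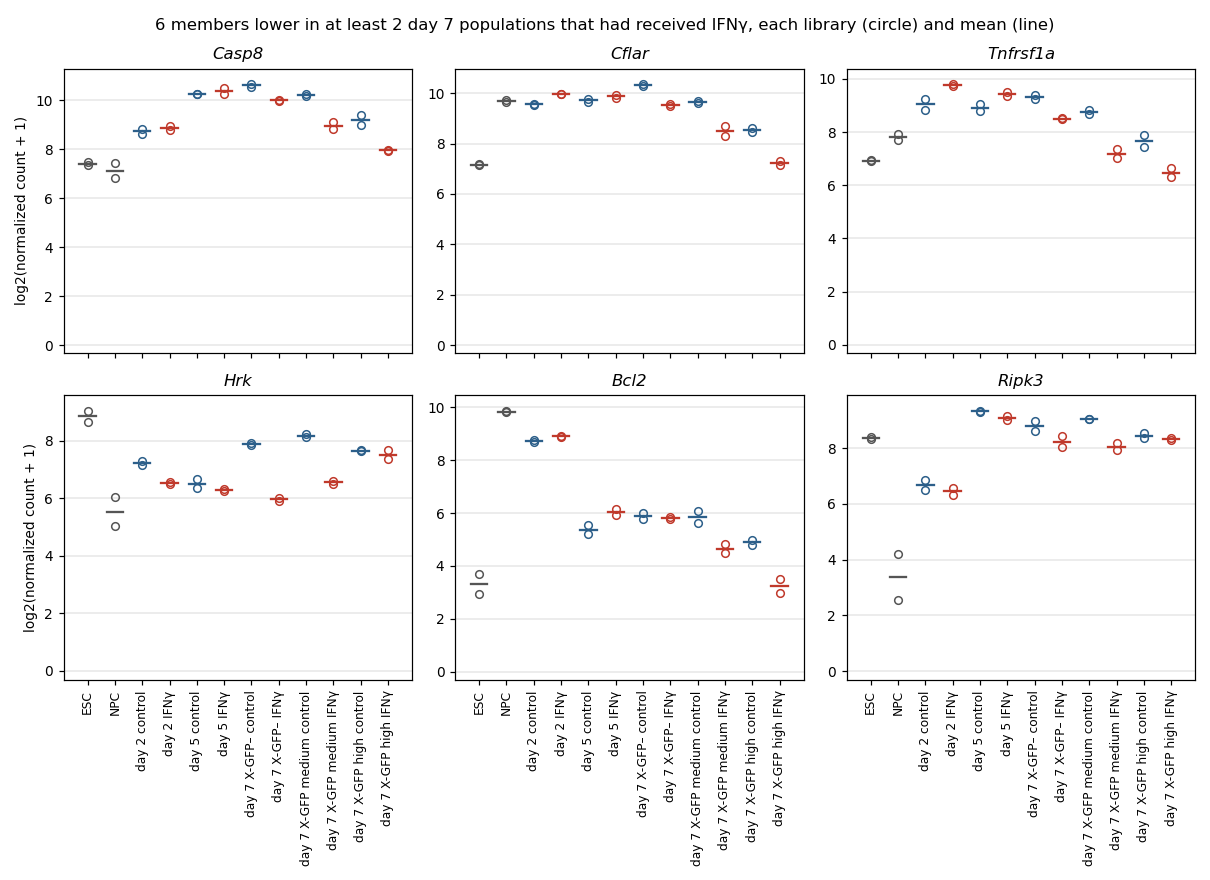
The vertical axes give log2(normalized count + 1) of 6 genes that were lower after IFNγ in at least 2 of the 3 populations of day 7, and the horizontal axis gives the 12 populations. Circles are single libraries and lines are means of 2 libraries, in red for IFNγ-treated, blue for control and gray for ESCs and NPCs. Casp8, Cflar and Tnfrsf1a were lower after IFNγ in negative, medium and high cells, and ESCs lay below all control cells of day 7 for these 3 genes.

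Among the BCL2 survival genes, 3, 3 and 4 of the 4 were lower after IFNγ in negative, medium and high cells and none was higher. Of all genes, 30.8%, 29.6% and 20.4% were lower there, and several calls of the 4 genes were lost in alternatives, as given below. Bcl2, in high cells the largest decrease among members tested, had 30.9 and 26.7 in control and 6.85 and 10.4 after IFNγ, a change of −1.65 (SE 0.37, adjusted p = 0.00604) at a low level. In medium cells it changed by −1.21 (SE 0.28, adjusted p = 0.0046), while in negative cells it had 53.8 and 63.3 against 56.9 and 54.4 (adjusted p = 0.806). The effect differed between medium and negative cells, by −1.15 (SE 0.34, adjusted p = 0.0629). Bcl2l1, which encodes BCL-XL, and Bcl2l2 were lower in all 3 populations, with log2 fold changes of −0.25, −0.17 and −0.32 for Bcl2l1 and −0.55, −0.22 and −0.45 for Bcl2l2 in negative, medium and high cells. Bcl2l1 lost its call in negative cells on rescaled values (−0.095, adjusted p = 0.361) and without control replicate 1 or replicate 2 of IFNγ. In medium and high cells both genes lost it without the filter and without control replicate 1, and Bcl2l2 in medium cells also by DESeq2. Mcl1 in high cells lost it without the filter and without 3 of the 4 libraries. Mcl1 was lower in negative cells, from 16639 and 15254 to 12939 and 11699.9, a change of −0.37 (SE 0.07, adjusted p = 0.00176). Of the 3 pore-forming genes, Bax rose in each population, by 0.35, 0.39 and 0.20, and in medium cells from 2409 and 2410.0 to 3051 and 3246. Bok was lower in 2 of the 3 populations, and in negative cells had 521 and 495 in control and 369 and 367 after IFNγ. Bak1 had 1581 and 1575 against 1702 and 1747 in negative cells and 1441 and 1478 against 1039 and 1272 in medium cells. The increase of Bax in high cells (adjusted p = 0.0503) was lost without either control library.

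The BH3-only genes did not move as a group. Hrk had the largest decrease among members tested in negative and in medium cells. It had 230.4 and 239 in control and 63.4 and 59.4 after IFNγ in negative cells, a change of −1.92 (SE 0.15, adjusted p = 1.38e-05), and 275 and 297 against 95.2 and 89.9 in medium cells, a change of −1.62 (SE 0.14, adjusted p = 1.07e-05). In high cells the arms overlapped, with 196 and 201 against 203 and 162, and the effect differed from that in medium cells by 1.49 (SE 0.21, adjusted p = 0.00492). Bik had the largest increase among members past the threshold in medium and in high cells, from 51.4 and 46.5 to 78.4 and 74.2 and from 49.5 and 54.4 to 107 and 70.5. Its changes were 0.63 (SE 0.21, adjusted p = 0.0266) and 0.73 (SE 0.25, adjusted p = 0.0421). Neither call was firm, since both were lost by DESeq2 and in the fit of all 24 libraries. That in medium cells was also lost without control replicate 2. That in high cells was also lost without the filter and without control replicate 1 or replicate 1 of IFNγ. Bmf was lower in negative and higher in medium cells, at log2 fold changes of −0.27 and 0.26, the only member called in both directions. Neither call was firm, since that in negative cells was lost on rescaled values (adjusted p = 0.342), in the fit of all 24 libraries and without control replicate 1 or replicate 2 of IFNγ, and that in medium cells by DESeq2, in the fit of all 24 libraries and without 3 of the 4 libraries. Pmaip1, which encodes NOXA, rose in medium cells, by 0.47 (SE 0.093, adjusted p = 0.0017), and Bcl2l11, Bad and Bid passed in none of the 3 populations. Bbc3 was lower in 2 populations, and in negative cells had 1296 and 1218 in control and 986 and 803 after IFNγ. Its call in high cells was lost without the filter and in the fit of all 24 libraries. That call was also lost without control replicate 1, control replicate 2 or replicate 2 of IFNγ, at −0.27, −0.33 and −0.12.

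Of the 6 genes of the apoptosome and other caspases, 5 rose in negative, 4 in medium and 2 in high cells. The shares of all genes that rose in these populations were 31.1%, 33.3% and 18.1%. Casp9, the caspase of the apoptosome, rose by 0.86 (SE 0.12, adjusted p = 0.000361) in negative cells, from 227 and 239 to 389.8 and 458, and by 0.59 (SE 0.11, adjusted p = 0.00157) in medium cells. Casp6 rose by 0.82 and 0.52 and Casp2 by 0.36 and 0.34 in the same populations. Diablo, whose product blocks inhibitors of apoptosis, rose in all 3, by 0.38, 0.40 and 0.20, but 1448 and 1193 of its 6166 exonic bases lie in genes on the other and on the same strand. Cycs, for cytochrome c, was the second largest increase past the threshold in high cells, with 629 and 647 in control and 735 and 766 after IFNγ, a change of 0.23 (SE 0.091, adjusted p = 0.0739) that was lost without either control library or without replicate 2 of IFNγ. Apaf1 was lower in negative and high cells, at −0.18 and −0.42, but in negative cells it was −0.022 on rescaled values (adjusted p = 0.8) and lost its call without 3 of the 4 libraries. Of the inhibitors of apoptosis, Birc5 rose in each population, by 0.38, 0.40 and 0.21, and Birc3 was lower in each, at −0.33, −0.48 and −0.38. Calls of Birc3 in negative and high cells were each lost in 5 alternatives, DESeq2 among them, and those of Birc5 and Diablo in high cells by DESeq2 and without either control library. All 8 genes of a list of mitosis genes also rose in negative and in medium cells and none of them passed in high cells.

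The counts of the further lists are to be read against the shares of all genes given above (31.1% higher and 30.8% lower in negative, 33.3% higher and 29.6% lower in medium and 18.1% higher and 20.4% lower in high cells), and several lie near them. Of 13 p53 target genes, 8 were lower and none higher in negative cells, 4 were lower and 5 higher in medium cells, and 8 were lower and 1 higher in high cells. Perp changed most of those past the threshold in each, by −1.77, −1.95 and −1.92, followed by Cdkn1a, the cell cycle inhibitor p21, by −1.64, −1.33 and −1.03. Of TNF receptor signaling, 10 of 19, 8 of 18 and 7 of 18 genes were lower in the 3 populations and 3, 3 and 2 were higher, with Tnfrsf12a at −1.34, −1.85 and −1.34. The mitochondrial and nuclear factors were divided, with 7 higher and 8 lower of 20 in negative, 5 and 6 in medium and 5 and 5 in high cells.

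Markers of several cell types moved with the treatment at day 7. The sum of 6 pluripotency genes was 19896 to 22713 in control and 31231 to 33363 after IFNγ in negative cells, 43337 to 44662 and 69955 to 72132 in medium cells, and 83195 to 87139.7 and 99737 to 102624 in high cells. Of 8 fibroblast genes, Dcn and Fbln2 made up most of the sum at day 7 and were lower after IFNγ in each population, Dcn at 3801 to 4299.7 against 219 to 287 in negative, 4472 to 5019.6 against 166 to 242 in medium and 1668 to 2176 against 41.1 to 119 in high cells. Of those tested, 2 of 7 fell in negative, 5 of 7 in medium and 2 of 6 in high cells. Of all genes, 30.8%, 29.6% and 20.4% fell there. In high cells Col1a1 had 61.9 to 65.1 against 70.8 to 75.1 and Thy1 106 to 128 against 168 to 253. Cd68 was lower after IFNγ, at 2348 to 2739.6 against 1031 to 1144 in negative, 1809 to 2069.5 against 981 to 1202 in medium and 1096 to 1244 against 513 to 683 in high cells. The neural precursor sum was 5059.9 to 5158 against 5631 to 5746 in negative, 3268 to 3541 against 2103 to 2392 in medium and 2047 to 2082 against 1374 to 1450.4 in high cells. In X-GFP–high control cells against X-GFP–negative control cells, where no IFNγ was given, Casp8, Cflar and Tnfrsf1a were lower too, at −1.41, −1.76 and −1.67. The part of these markers in the differences of day 7 was not tested. Over all 3 populations, the IFNγ effect differed between medium and negative cells in 8 of 35 members, 3 higher and 5 lower (all genes 7.31% higher and 8.36% lower), and between high and medium cells in 4 of 34, 2 higher and 2 lower (all genes 4.71% higher and 8.06% lower).

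Comparison of ESCs with NPCs gave the levels at both ends of the course. Of 34 genes tested, 16 were higher and 15 lower in ESCs, 91.2% against 85.6% of all genes (42.2% higher and 43.4% lower). Ripk3 had 4.86 and 17.6 in NPCs and 337 and 325 in ESCs, a change of 4.99 (SE 0.54, adjusted p = 0.000259). Bid, whose product links death receptors to mitochondria, had 169 and 200.3 in NPCs and 1807 and 1973 in ESCs, a change of 3.35 (SE 0.12, adjusted p = 4.76e-06). Hrk had 32.1 and 64.1 against 404 and 522, a change of 3.31 (SE 0.35, adjusted p = 0.000233). The NPC libraries differed from each other by ratio in Ripk3 and Hrk, but none reached the level of ESCs. Bcl2 had the largest difference among members tested in the other direction, 929 and 893 in NPCs and 11.8 and 6.66 in ESCs, a change of −6.52 (SE 0.29, adjusted p = 8.51e-06). Fas had 65.1 and 84.3 in NPCs and 4.91 and 4.76 in ESCs, a change of −3.69 (SE 0.28, adjusted p = 6.24e-05). Casp6 had 276 and 301 against 52.1 and 45.7, a change of −2.54 (SE 0.19, adjusted p = 4.96e-05). Casp1 and Tnfsf10 had no reads in any library of either population.

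BCL2 survival genes differed among themselves in this comparison. Bcl2, Bcl2l1 and Bcl2l2 were lower in ESCs, the latter at log2 fold changes of −1.51 and −1.03, whereas Mcl1 was higher, by 0.72 (SE 0.064, adjusted p = 0.000114). All 3 pore-forming genes were higher in ESCs, by 0.39 for Bax, 0.77 for Bak1 and 1.08 for Bok. Of the BH3-only genes, Bid, Hrk, Pmaip1 and Bik were higher and Bcl2l11, Bad, Bmf and Bbc3 lower. Of these, Bik lost its call in 6 alternatives (0.48 without NPC replicate 2, adjusted p = 0.32), Bmf in 5 with DESeq2 among them, and Bbc3 in 6 with DESeq2 and edgeR among them. Birc2, Birc3 and Birc5 were all higher in ESCs.

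In the first 2 days of reprogramming without IFNγ, 20 members were higher and 13 lower than in NPCs among 36 tested, 91.7% against 69.2% of all genes (31.6% higher and 37.6% lower). Mlkl had no reads in NPCs and 26.5 and 28.8 counts at day 2, at least 9.95-fold higher (adjusted p = 0.000227). Casp4 had 0 and 0.878 in NPCs and 23.4 and 19.9 at day 2, at least 7.79-fold higher (adjusted p = 0.000818). Casp12 had 9.72 and 11.4 in NPCs and 179 and 105 at day 2, a change of 3.58 (SE 0.34, adjusted p = 0.000377). Y-linked transcripts were found in these day 2 libraries, and the part of feeder cells in these increases was not tested. In control cells of day 5, Casp12 and Casp4 were at the floor, at least 54.8-fold and 8.34-fold lower than at day 2. Mlkl had 10.1 and 7.99 counts there. Of the genes that fell, Casp6 had 276 and 301 in NPCs and 101 and 105 at day 2, a change of −1.48 (SE 0.16, adjusted p = 0.000635). Bcl2l11 had 1124 and 1157 against 454 and 470.5, a change of −1.30 (SE 0.092, adjusted p = 0.000145), and Bcl2 had 929 and 893 against 415 and 429, a change of −1.11 (SE 0.10, adjusted p = 0.000284). The groups did not overlap in any of these. Bid had 1758 and 1849 at day 2, against 1807 and 1973 in ESCs.

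From day 2 to day 5, 17 members rose and 11 fell in control cells of 38 tested, 73.7% against 70.6% of all genes (34.9% higher and 35.6% lower). Fas and Bcl2 fell by 4.30 and 3.36 on the log2 scale, and Pmaip1 and Ripk3 rose by 2.96 and 2.64. Day 2 cells were sorted as CFSE-negative and day 5 cells as SSEA1+, and Y-linked transcripts were found at day 2. Time, sort and feeder transcripts therefore cannot be told apart in these changes. Without control replicate 1 of day 2, only 7 were called lower. From day 5 to X-GFP–negative cells of day 7, 14 rose and 12 fell of 34, 76.5% against 63.7% of all genes (34.2% higher and 29.5% lower), with Bik at 1.70, Hrk at 1.38 and Bbc3, which encodes PUMA, at 1.36 among the increases and Cycs at −1.28 and Fadd at −1.25 among the decreases. The X-GFP–high control cells of day 7 differed from the negative ones in 28 of 34 members, 82.4% against 74% of all genes, with 10 higher and 18 lower (all genes 34.7% higher and 39.3% lower). Against ESCs, they were higher in 18 and lower in 12 of 34 members, 88.2% against 75.8% of all genes (37.9% higher and 37.8% lower). Pmaip1, Casp8, Tradd and Bbc3 had the largest increases over ESCs among members tested, by 1.89, 1.78, 1.75 and 1.72, and Hrk the largest decrease, at −1.21. Most of these genes thus differed between day 7 cells of the highest X-GFP class and ESCs, as did most of all genes. Mcl1 was among them, at 20103 ± 902 counts in the X-GFP–high cells against 10420.2 ± 441 in ESCs. The ESC medium that the paper describes lists no doxycycline, so that culture and cell type cannot be told apart.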

How the data were processed

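The 24 RNA-seq libraries, 2 replicates of each of 12 populations, were grouped by their labels. The study's methods call the 2 RNA-seq replicates independent without saying what was repeated, so that p-values measure the spread between these samples. The signal values that the authors deposited are normalized counts: read pairs aligned with STAR to mm10, counted per gene with HTSeq 0.6.1 and divided by DESeq2 size factors. The strand setting of the counting is not given in the sources used here, and reads of overlapping genes may not be told apart (Ripk1, Fadd, Bcl2, Bcl2l2, Bax, Bak1, Bad, Bid, Casp9 and Diablo share exonic bases with other genes, and Cycs has pseudogene copies). In every library 100% of values were whole multiples of 1 step within 0.01, and whole reads were recovered from them for the count tests. A table of allelic proportions was not used.

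Genes with a mean above 10 in the 4 libraries of a comparison were fitted with limma 3.58.1 (lmFit and eBayes with trend, R 4.3.3) on log2(normalized count + 1), with Benjamini-Hochberg adjustment over all genes and a two-sided threshold of 0.1. Log2 fold changes are on this scale and understate changes of low genes. Effects were compared between populations by an interaction term in 8 libraries. A group with at most 3 reads in each library was treated as at the floor. Folds against it divide the mean of the other group by 3 reads. They are bounds for the group at the floor only and leave out the counting error of the other group. DESeq2 1.42.0, edgeR 4.0.16, another pseudocount (0.1), no filter, another scaling, a fit of all libraries, a replicate block and leaving out each library were tried as alternatives. Functions were tested on simulated data. The members, lists and tests were chosen with earlier results of these data known. Values of each library are given for members past the threshold at day 2 or 5, for the 2 largest changes in each direction per population of day 7, and for the 3 largest in ESCs and day 2 control cells against NPCs. Gene models and exon lengths were those of GENCODE vM21 on GRCm38, in which 95.0% of identifiers were found.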

Additional observations from a re-analysis of the deposited data

Results flagged for a closer look

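The effect of IFNγ on 12 genes differed between neighboring populations of day 7 in a test of the difference itself, an interaction in limma with an adjusted p under 0.1. When X-GFP–medium cells were set against X-GFP–negative ones, 8 of 35 members differed, against 15.7% of all genes. The log2 fold change after IFNγ was lower in medium cells for Gsdmd −0.57 (SE 0.16), Tnfrsf1a −0.74 (SE 0.18), Casp8 −0.64 (SE 0.13), Bcl2 −1.15 (SE 0.34) and Bak1 −0.47 (SE 0.12). It was higher in medium cells for Mcl1 0.47 (SE 0.10), Bmf 0.53 (SE 0.15) and Bbc3 0.53 (SE 0.15). Between X-GFP–high and X-GFP–medium cells 4 of 34 members differed, against 12.8% of all genes. The log2 fold change was higher in high cells for Ripk3 0.88 (SE 0.16) and Hrk 1.49 (SE 0.21), and lower for Pmaip1 −0.48 (SE 0.12) and Apaf1 −0.38 (SE 0.11). Ripk3 had fallen by 1.00 on the log2 scale in medium cells, from 529.7 and 529 to 243 and 288 counts, while in high cells the arms overlapped at 374 and 326 against 327 and 314. Without the filter on low values, the differences of Bcl2, Bmf, Bbc3 and Apaf1 did not pass. Those of Bmf (0.37, adjusted p = 0.119) and Bbc3 (0.36, adjusted p = 0.125) did not pass on rescaled values either. No other group of samples could be searched for single libraries that stand apart, since each holds 2.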

How the results depend on the processing

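No single-gene value changed its direction under any alternative that was run. Of 2950 such values, 2708 kept direction and side of the threshold and 242 lost the threshold. Counts that moved by more than 1.5 times were the following. At day 2, 3 lower members became 0 without the filter, 1 by DESeq2 and 5 with the replicate block, and 0 to 1 when 1 library was left out. At day 5, 6 higher members became 14 in the fit of all 24 libraries and 14 with the block (where 1810 and 1569 of 15133 genes were higher and lower), and 4 to 10 when 1 library was left out (10 without replicate 1 of IFNγ), while none lower became 2, 2 and, by DESeq2, 1, and 0 to 1 when 1 library was left out. In X-GFP–negative cells 14 lower became 9 on rescaled values, and in X-GFP–medium cells 10 higher became 6 by DESeq2. In X-GFP–high cells 5 higher became 1 without the filter, 3 on rescaled values and 0 by DESeq2, and 0 to 5 when 1 library was left out (0 without control replicate 1 and 2 without control replicate 2), while 13 lower became 8 without the filter and 6 to 12 when 1 library was left out (6 without control replicate 1). Between day 2 and day 5 control cells the members that fell numbered 7 to 11 when 1 library was left out (7 without day 2 control replicate 1). Of effects that differed between medium and negative cells, 8 became 5 without the filter. Of those between day 5 and day 2, 0 became 3 with the replicate block. The cause of these shifts was not tested.

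Replicate numbers are shared between groups in the labels, with no statement that they mark a common culture, and with 2 pairs they cannot be shown to. Deviations of same-numbered libraries correlated at 0.406 at day 2 and 0.363 at day 5 and at −0.146 between day 2 control cells and NPCs. There a block with crossed numbers, chosen after seeing the data, called 20 higher and 13 lower, as without a block. Other counts moved by at most 1.5 times with the replicate block. With 2 libraries a group, a gene that missed the threshold is not shown to be equal between groups.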
